A study of Pseudozyma hubeiensis with 12 samples.

Results

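The mitochondrial ribosomal proteins of the basidiomycete yeast Pseudozyma hubeiensis strain BOT-O were taken as the loci whose annotated product names a 37S or 54S ribosomal protein, or holds both "ribosomal protein" and "mitochondrial". Of 6689 loci in the table, 51 met that rule. RNA was sequenced from cultures on glucose or on xylose, with 3 biological replicates (A, B and C) from exponentially growing cultures (time point 1) and 3 from cultures starved of nitrogen (time point 2) on each sugar, which makes 4 groups. All 4 groups grew from the start in yeast nitrogen base medium with little nitrogen, holding 80 g of carbon for each g of nitrogen. Every starved library of the 12 also comes from the later time point, so effects of starvation and of culture age cannot be told apart.

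Mitochondria keep a ribosome of their own, of bacterial descent, which translates the few messages of the mitochondrial genome, mainly core subunits of the respiratory chain and ATP synthase. In fungi nearly all of its proteins are encoded in the nucleus, made by cytosolic ribosomes and imported. The small (37S) subunit decodes the message, and the large (54S) subunit holds the peptidyl transferase centre, the stalk that recruits translation factors and the exit tunnel that opens at the inner membrane. Some members descend from bacterial ribosomal proteins and others are found only in mitochondria. Roles named below are those known for the bacterial counterpart in Escherichia coli or for the protein of that name in Saccharomyces cerevisiae.

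Of the 51 members, 46 had enough counts to be tested, and each of these had between 283 and 14877 reads in every library. By the words of their products, 27 members belong to the large subunit (23 tested) and 19 to the small subunit (18 tested). The other 5, all tested, were given no subunit by the rule, which read 37S, 54S or an L or S number right after the words "ribosomal protein". Of these, PHBOTO_000950 is annotated as a likely MRPL27 and PHBOTO_002025 as related to MRPL44 of the large subunit, and both were left unclassed as the rule has it. Of the 5 members not tested, mrpl7 (PHBOTO_001049), mrpl37 (PHBOTO_001542), mrp7 (PHBOTO_004739) and the small-subunit member nam9 (PHBOTO_004485) had 0 reads in all 12 libraries. By counting error alone, that allows a level of up to 0.0105 CPM over all libraries. Whether these loci are silent, or lack reads because of the annotation or the read counting, was not tested. The fifth, PHBOTO_002143, carries the product name 54S ribosomal protein L4, like mrpl4 (PHBOTO_002747), and had 13 reads in all, spread over 4 libraries. Over the whole table, 9.19% of loci (615) stood at 0 in all libraries, against 4 of 51 members (7.84%).

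Levels are given in CPM, counts relative to the library total after TMM normalization. Only RNA was measured, and levels of proteins and of ribosomes were not. Where a protein is said below to fall or rise, its transcript is meant. CPM is not divided by gene length, so levels are compared between libraries and not between genes, and a value is a share of the RNA in a library, so that a fall in a share and a fall in RNA per cell cannot be told apart. Library totals ran from 15130232 to 32374467 counts. Replicates were closest in exponential growth, where the median coefficient of variation over the 46 members was 3.65% on glucose and 6.21% on xylose, and wider in starvation, at 12.0% and 15.8%. In starved xylose, replicate A stood apart, with the highest level of its group for 43 of 46 members against 37.4% of all tested loci. In exponential xylose, replicate A was highest for 39 of 46 members, against 37.9% of all loci. For the members, the sugar comparison in starvation and the interaction of phase and sugar are given with and without starved xylose A. Their median log2 change in starvation on xylose was -1.21 with that library and -1.34 without it. Sums of counts and values of the other gene lists are given only with that library.

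In nitrogen starvation on glucose, the genes of the mitochondrial ribosome fell almost throughout. By edgeR's quasi-likelihood test with Benjamini-Hochberg adjustment over 5805 loci, 44 of the 46 tested members were lower at an adjusted p under 0.05 and 0 were higher, while 41.1% of all loci were called lower and 40.1% higher. The median log2 fold change of the members was -1.58 (quartiles -2.18 and -1.12), a 3.0-fold lower level, against a median of -0.02 over all loci. The changes ran from -3.0 for mnp1 to -0.11 for PHBOTO_002025. A fall of 2-fold or more was called for 37 members and for 22.1% of all loci. For 45 members all 3 starved libraries lay under all 3 exponential ones, which held for 41.6% of all loci. The members not called were mrpl31 and PHBOTO_002025.

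On xylose the members fell as well, by less. Of the 46 tested members, 42 were called lower and 0 higher (1 higher at an unadjusted p under 0.05, and 1 by DESeq2), with 40.6% of all loci called lower and 40.6% higher. The median change was -1.21 (quartiles -1.56 and -0.54), or 2.32-fold lower, against 0.00 over all loci, with a range from -2.57 for mrpl20 to 0.24 for PHBOTO_002025. A fall of 2-fold or more was called for 25 members, against 20.2% of all loci. The starved libraries lay wholly under the exponential ones for 42 members, against 42.6% of all loci, and wholly above them for 1. All 42 were also lower on glucose. On glucose alone 2 members were called lower, img2 and mrpl33, and on neither sugar were mrpl31 and PHBOTO_002025 called.

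The 2 starvation comparisons share no library, and over the 46 members their changes ranked alike, with a Pearson correlation of 0.939 and a Spearman correlation of 0.935. Over all 5805 loci the same correlations were 0.881 and 0.887. These correlations are across genes, which are not independent replicates, and they carry no test.

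**Figure D1:**
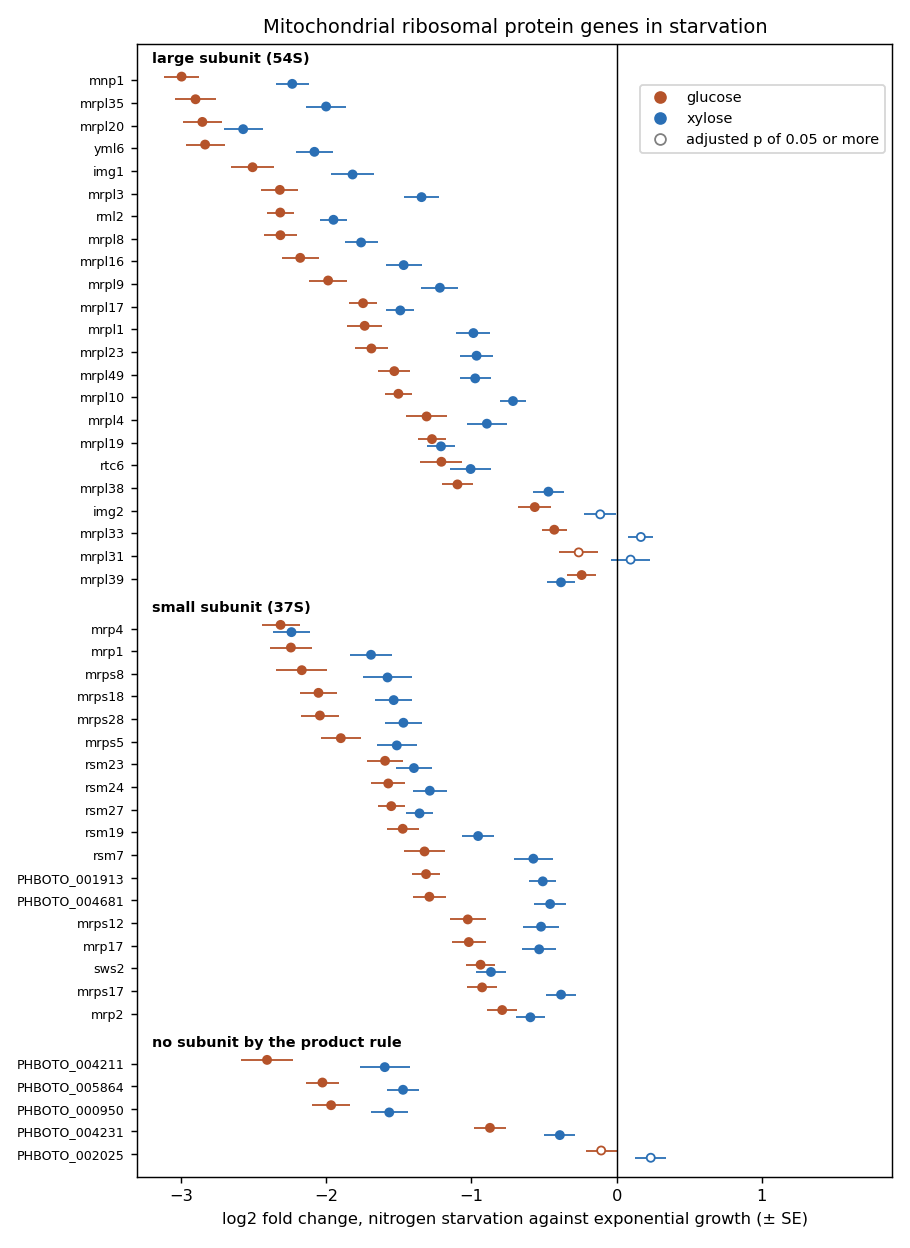
Log2 fold change of each of the 46 tested members in nitrogen starvation against exponential growth, on glucose and on xylose, with bars of ± 1 SE and the members grouped by subunit; open points had an adjusted p of 0.05 or more. Points run from -3.0 to 0.24, and for 45 members the xylose point lies to the right of the glucose point.

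Among the large-subunit proteins, 22 of 23 tested members fell on glucose (median change -1.74) and 20 of 23 on xylose (median -1.21). The stalk and its base recruit elongation factors and guide tRNA through the ribosome. The stalk protein mnp1 (PHBOTO_004529), the counterpart of bacterial L12, stood at 372, 363 and 371 CPM in replicates A, B and C of exponential glucose and at 44.2, 40.8 and 53.6 CPM in starved glucose. The group ranges were far apart, and mnp1 fell by 3.0 ± 0.12 on the log2 scale, a 7.98-fold lower level (edgeR adjusted p = 1.06e-12). On xylose its level went from 298, 289 and 277 CPM to 73.0, 54.2 and 56.8 CPM, a fall of 4.70-fold with no overlap between the groups (log2 fold change -2.23 ± 0.12, edgeR adjusted p = 2.61e-11). The stalk base protein mrpl19, counterpart of L11, fell from 107 ± 1.87 to 44.2 ± 6.05 CPM on glucose (mean ± SD, n = 3) and from 91.9 ± 2.94 to 39.8 ± 2.59 CPM on xylose, changes of -1.27 and -1.21 that lay within their standard errors of each other. The other mobile stalk protein, mrpl1, fell from 187 ± 4.84 to 56.2 ± 8.63 CPM on glucose and from 153 ± 8.02 to 77.1 ± 12.1 CPM on xylose.

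The proteins that bind the rRNA around the peptidyl transferase centre and the tunnel include rml2 (PHBOTO_004762), counterpart of bacterial L2. It stood at 436, 437 and 464 CPM in exponential glucose and at 83.0, 89.6 and 95.9 CPM in starved glucose, and at 376, 378 and 344 CPM in exponential xylose and 107, 85.6 and 91.7 CPM in starved xylose. All starved libraries lay under all exponential ones, with a 4.98-fold fall on glucose (-2.32 ± 0.09, edgeR adjusted p = 1.41e-12) and a 3.86-fold fall on xylose (-1.95 ± 0.09, edgeR adjusted p = 1.06e-11). The gene yml6 (PHBOTO_000403) encodes the counterpart of L4, which lines the exit tunnel. It went from 237, 230.0 and 232 CPM to 29.7, 27.7 and 40.7 CPM on glucose, a 7.13-fold fall (-2.83 ± 0.13, edgeR adjusted p = 8.36e-12). On xylose yml6 went from 206, 188 and 182 CPM to 53.0, 41.7 and 41.8 CPM, a 4.23-fold fall (-2.08 ± 0.13, edgeR adjusted p = 2.56e-10). Its libraries did not overlap between the phases on either sugar. Counterparts of L3 (mrpl9), L13 (mrpl23), L15 (mrpl10), L16 (mrpl16) and L17 (mrpl8) fell on glucose by 1.99, 1.69, 1.5, 2.18 and 2.32 on the log2 scale, and on xylose by 1.22, 0.96, 0.71, 1.47 and 1.76.

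The bacterial-type protein img1 (PHBOTO_006454), counterpart of L19, is named in S. cerevisiae for the integrity of the mitochondrial genome, which is lost in its absence. It stood at 160.1, 146 and 164 CPM in exponential glucose and 20.8, 27.5 and 34.4 CPM in starved glucose, a 5.68-fold fall (-2.51 ± 0.15, edgeR adjusted p = 1.62e-10). On xylose it went from 124, 115 and 106 CPM to 38.5, 30.6 and 29.3 CPM (log2 fold change -1.82 ± 0.15). The phases did not overlap on either sugar. The subunit-interface protein mrpl38, counterpart of L14, fell from 191 ± 5.64 to 89.6 ± 6.85 CPM on glucose and from 163 ± 10.6 to 118 ± 19.5 CPM on xylose. Smaller rRNA-binding proteins, mrpl4 (counterpart of L29), mrpl49 (L21) and rtc6 (L36), fell on glucose by 1.31, 1.53 and 1.21 on the log2 scale, and on xylose by 0.89, 0.97 and 1.01.

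Large-subunit proteins with no bacterial counterpart gave both some of the deepest falls and some of the smallest changes. The gene mrpl35 (PHBOTO_001395), for a protein of the central protuberance, stood at 216, 199 and 205 CPM in exponential glucose and 24.9, 25.9 and 32.3 CPM in starved glucose, a 7.46-fold fall (-2.90 ± 0.14, edgeR adjusted p = 1.43e-11). On xylose mrpl35 went from 173, 163 and 156 CPM to 51.6, 39.3 and 32.7 CPM (-2.0 ± 0.14, edgeR adjusted p = 9.08e-10). Replicate A was the highest of the starved xylose libraries here, and still lay far under the exponential range. The gene mrpl20 (PHBOTO_001093) had the deepest fall of all tested members on xylose. It went from 229, 268 and 240.0 CPM to 42.9, 42.1 and 39.1 CPM there, a 5.95-fold fall (-2.57 ± 0.13, edgeR adjusted p = 2.84e-11), and from 257, 227 and 232 CPM to 25.8, 41.7 and 31.6 CPM on glucose (-2.85 ± 0.14, edgeR adjusted p = 9.8e-12). The groups lay apart on both sugars. The RNase III-like protein mrpl3 (PHBOTO_003003) went from 178, 171 and 175 CPM to 27.4, 33.8 and 43.8 CPM on glucose and from 128, 141 and 128 CPM to 54.8, 48.6 and 53.1 CPM on xylose, falls of 4.99-fold and 2.54-fold with no overlap. The Nudix-like protein mrpl17 fell by 1.75 on glucose and by 1.49 on xylose on the log2 scale.

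The smallest changes of the large subunit were those of mrpl33, mrpl39, img2 and mrpl31. The gene mrpl33 (PHBOTO_000275), counterpart of L30, stood at 313, 309 and 286 CPM in exponential glucose and 224, 212 and 238 CPM in starved glucose, where it fell 1.35-fold (-0.43 ± 0.09, edgeR adjusted p = 0.000232). On xylose its level was 242, 209.9 and 209 CPM in exponential growth and 268, 235 and 239 CPM in starvation, groups that overlap, with a change of 0.17 ± 0.09 (edgeR adjusted p = 0.0821). Without exponential xylose A the same change was called higher, at 0.24 (edgeR adjusted p = 0.0261). Counterpart of L33, mrpl39 (PHBOTO_004204) stood at 139.9, 137 and 146 CPM in exponential glucose and 132, 107 and 119.7 CPM in starved glucose, a change of -0.24 ± 0.10 (edgeR adjusted p = 0.0343). That call was lost without any of 5 single libraries, with edgeR adjusted p from 0.0501 to 0.207 (all 3 exponential glucose libraries, and starved glucose B and C). On xylose mrpl39 went from 149, 132 and 126 CPM to 93.2, 114 and 105 CPM, a fall of 0.38 ± 0.10 on the log2 scale (edgeR adjusted p = 0.00201), and the groups did not overlap.

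The gene img2 (PHBOTO_000081), named like img1 for the integrity of the mitochondrial genome in S. cerevisiae, stood at 86.6, 80.8 and 80.8 CPM in exponential glucose and 48.2, 58.5 and 61.3 CPM in starved glucose, a 1.48-fold fall without overlap (-0.56 ± 0.11, edgeR adjusted p = 0.000236). On xylose it stood at 65.7, 63.4 and 65.3 CPM and 71.0, 55.5 and 53.5 CPM, with starved replicate A above and B and C below the exponential range. The change there was -0.11 ± 0.11 (edgeR adjusted p = 0.362), and without starved xylose A it was called lower, at -0.29 (edgeR adjusted p = 0.0213). The gene mrpl31 (PHBOTO_003422) stood at 51.1, 46.2 and 46.3 CPM in exponential glucose and 34.8, 45.1 and 40 CPM in starved glucose, a change of -0.26 ± 0.13 (edgeR adjusted p = 0.0842). Its xylose libraries read 42.0, 42.4 and 39.7 CPM in exponential growth and 48.0, 50.7 and 34.3 CPM in starvation (0.10 ± 0.13, edgeR adjusted p = 0.511), with the starved replicates on both sides of the exponential ones, and the sign of this change turned when starved xylose A or B was left out.

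**Figure D2:**
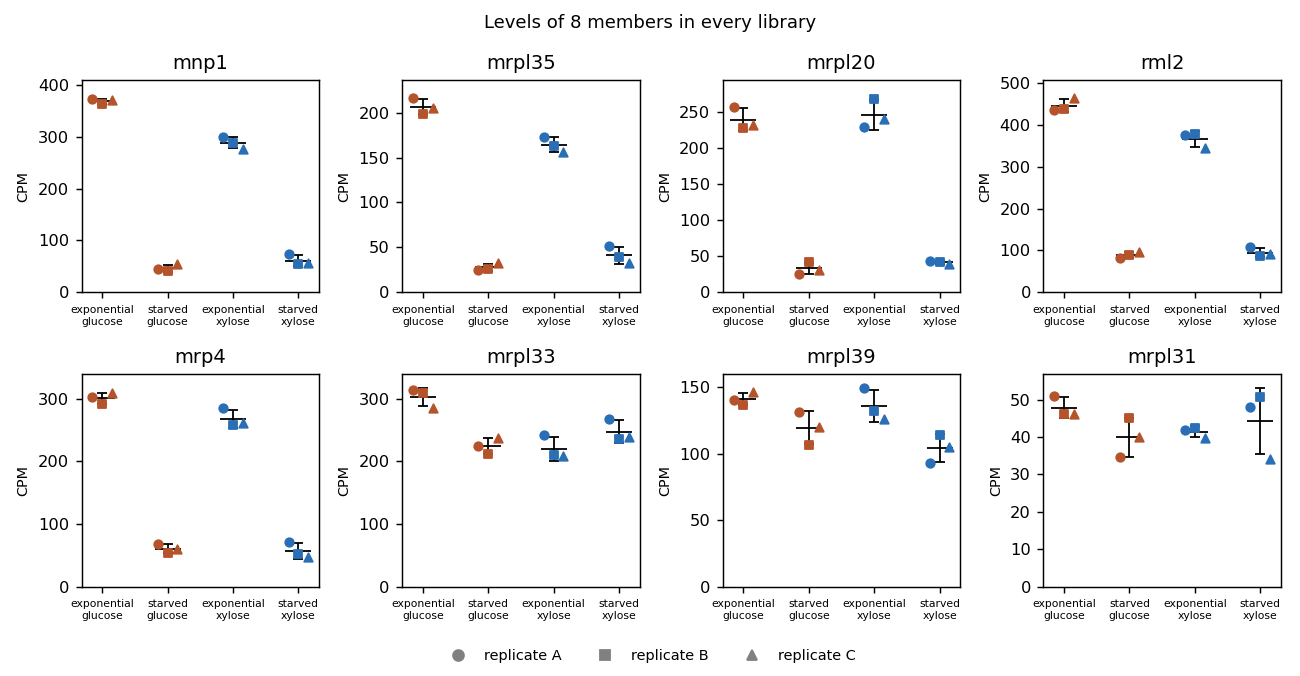
CPM of 8 members (mnp1, mrpl35, mrpl20, rml2, mrp4, mrpl33, mrpl39 and mrpl31) in every library, by group, with a separate vertical axis from 0 for each gene; symbols mark replicates A, B and C, and bars give the mean ± SD of 3 libraries. The starved libraries of the first 5 genes lie far below the exponential ones on both sugars, whereas those of mrpl33, mrpl39 and mrpl31 lie near or among them.

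All 18 tested small-subunit members fell on both sugars, with a median change of -1.51 on glucose and -1.12 on xylose. The deepest fall was that of mrp4 (PHBOTO_005079), counterpart of bacterial S2. It stood at 303, 291 and 308 CPM in exponential glucose and 68.0, 54 and 59.5 CPM in starved glucose, and at 284, 258 and 261 CPM in exponential xylose and 71.7, 51.6 and 47.4 CPM in starved xylose. These are falls of 4.97-fold on glucose (-2.31 ± 0.13, edgeR adjusted p = 7.96e-11) and 4.72-fold on xylose (-2.24 ± 0.13, edgeR adjusted p = 1.15e-10), with wide gaps between the phases. The decoding-centre protein mrps12, counterpart of S12, fell from 128 ± 3.50 to 62.9 ± 8.67 CPM on glucose and from 98.8 ± 6.35 to 69.0 ± 13.7 CPM on xylose. The counterpart of S5, mrps5, which sits where the message enters, fell from 101 ± 6.25 to 27.1 ± 6.30 CPM on glucose and from 78.8 ± 9.45 to 27.6 ± 1.72 CPM on xylose.

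Transcripts for proteins of the head of the small subunit fell by unequal amounts. On glucose the log2 changes were -1.32 for rsm7 (counterpart of S7), -0.94 for sws2 (S13), -0.79 for mrp2 (S14) and -1.47 for rsm19 (S19), and on xylose -0.57, -0.87, -0.59 and -0.95. On glucose mrp2 had the smallest fall of the subunit, from 183 ± 7.68 to 106 ± 13.7 CPM. The rRNA-binding proteins of the body and platform changed on glucose by -2.17 for mrps8 (S8), -2.05 for mrps18 (S11), -2.04 for mrps28 (S15), -0.93 for mrps17 (S17) and -1.02 for mrp17 (S6). On xylose their changes were -1.58, -1.54, -1.47, -0.38 and -0.53 in that order, and the fall of mrps17 was the smallest of the subunit there. Members of the mitochondrial kind also fell. The GTP-binding protein rsm23 went from 285 ± 3.46 to 94.5 ± 16.6 CPM on glucose and from 248 ± 9.53 to 94.5 ± 16.3 CPM on xylose, and mrp1, rsm24 and rsm27 changed by -2.24, -1.57 and -1.55 on glucose and by -1.69, -1.29 and -1.36 on xylose.

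A pair of small-subunit loci has no gene name. The locus PHBOTO_001913, annotated as a likely mitochondrial S18, stood at 147, 150.2 and 144 CPM in exponential glucose and 63.7, 51.8 and 62.5 CPM in starved glucose, and at 107, 96.9 and 96.9 CPM and 76.3, 70.7 and 64.4 CPM on xylose. Its fall was 2.48-fold on glucose (-1.31 ± 0.09, edgeR adjusted p = 1.81e-09) and 1.42-fold on xylose (-0.51 ± 0.09, edgeR adjusted p = 0.000101). PHBOTO_004681, a potential mitochondrial S21, stood at 161, 169.9 and 185 CPM and 71.8, 62.2 and 77.1 CPM on glucose, and at 139, 119 and 119 CPM and 103, 78.3 and 93.4 CPM on xylose, in exponential growth and in starvation respectively. It fell 2.44-fold and 1.37-fold (edgeR adjusted p = 1.91e-08 and 0.00117). Neither locus overlapped between the phases.

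Of the 5 members that the product rule left without a subunit, 4 fell on both sugars. PHBOTO_004211 stood at 174, 160.1 and 155 CPM in exponential glucose and 26.7, 22.7 and 43.0 CPM in starved glucose, a 5.31-fold fall (-2.41 ± 0.18, edgeR adjusted p = 2.7e-09), and at 146, 141 and 134 CPM and 55.5, 44.4 and 39.9 CPM on xylose (-1.6 ± 0.17). PHBOTO_005864 went from 202, 209 and 205 CPM to 46.3, 48.1 and 56.9 CPM on glucose and from 157, 146 and 137 CPM to 62.0, 46 and 51.1 CPM on xylose. Both loci lay wholly lower in starvation. PHBOTO_000950, likened to MRPL27, fell by 1.97 and 1.57 on the log2 scale on glucose and xylose, and PHBOTO_004231 by 0.87 and 0.39. The exception was PHBOTO_002025, annotated as related to MRPL44 of the large subunit. It stood at 35.0, 33.0 and 35.8 CPM in exponential glucose and 36.2, 31.0 and 29.2 CPM in starved glucose (-0.11 ± 0.11, edgeR adjusted p = 0.366), groups that overlap. On xylose all starved libraries, at 36.3, 31.6 and 32.6 CPM, lay above the exponential ones, at 29.6, 27.5 and 28.1 CPM, with a change of 0.24 ± 0.11 (edgeR adjusted p = 0.0508) that was called higher under 8 of 19 alternatives.

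By descent, most members of both kinds fell on both sugars. The 29 tested members with a bacterial counterpart had a median change of -1.53 on glucose and -0.99 on xylose, and the 10 without one -1.67 and -1.38, with standard deviations of 0.69 and 0.62 among the former and 0.87 and 0.79 among the latter. The difference between the kinds was not tested. Families were assigned by gene name, after values had been seen, and 7 tested members were given none.

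Summed over the members, the mitochondrial ribosome took 0.841, 0.814 and 0.838% of all counts in replicates A, B and C of exponential glucose and 0.720, 0.669 and 0.669% in exponential xylose. In starvation the shares were 0.269, 0.246 and 0.264% on glucose and 0.305, 0.268 and 0.244% on xylose. The mean share was thus 3.20-fold lower in starvation on glucose and 2.52-fold lower on xylose, with no overlap between the phases. The starved groups overlapped each other, and exponential xylose lay wholly under exponential glucose. No test was run on these sums. The cytosolic ribosomal proteins, which build the ribosomes of the cytoplasm, took 18.1 to 18.8% of counts in exponential glucose and 17.3 to 18.0% in exponential xylose, and 2.05 to 2.22% and 2.61 to 3.31% in the starved groups. Per 100 counts of cytosolic ribosomal proteins there were 4.41 to 4.66 counts of the mitochondrial members in exponential glucose and 11.6 to 13.1 in starved glucose, and 3.86 to 4.00 and 9.21 to 9.44 on xylose. As a ratio of group means, mitochondrial per cytosolic counts were therefore 2.71-fold higher in starvation on glucose and 2.39-fold higher on xylose, with every starved library above every exponential one.

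The balance of counts between the subunits moved less. Large-subunit counts per small-subunit count were 1.42, 1.40 and 1.40 in exponential glucose and 1.08, 1.32 and 1.28 in starved glucose, so the starved libraries lay lower, replicate A most. On xylose the ratio was 1.39, 1.46 and 1.38 in exponential growth and 1.27, 1.35 and 1.33 in starvation, again without overlap. Single members changed their part of the whole by more. The share of member counts held by mrpl33 was 3.6 to 3.98% in exponential glucose and 8.47 to 8.61% in starved glucose, and 3.28 to 3.54% and 7.77 to 8.86% on xylose. For mnp1 the share was 4.68 to 4.68% in exponential glucose and 1.63 to 1.93% in starved glucose.

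**Figure D3:**
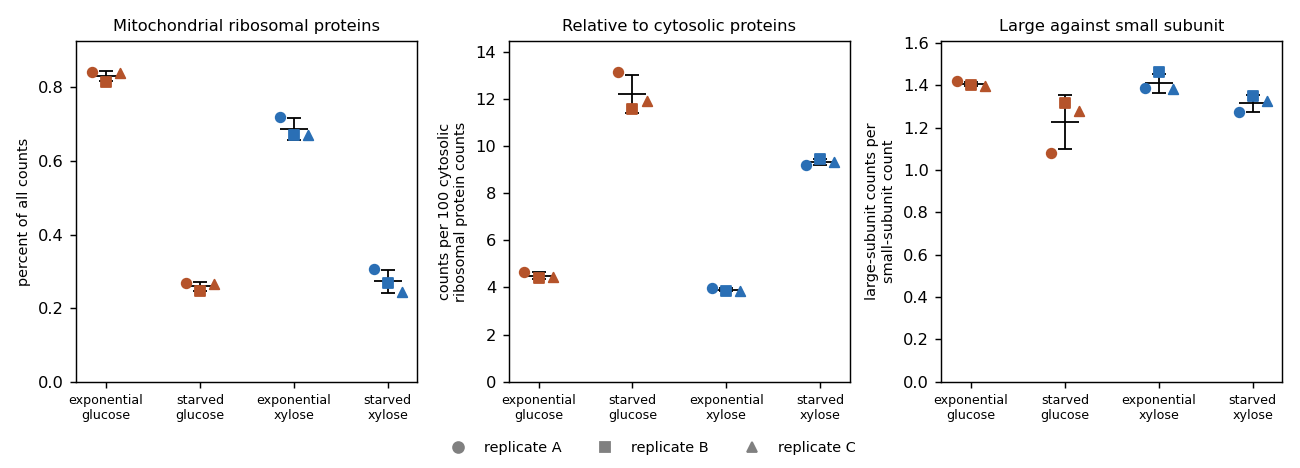
Left, percent of all counts in the 51 members; middle, their counts per 100 counts of cytosolic ribosomal proteins; right, large-subunit counts per small-subunit count, each by group with symbols for replicates A, B and C and bars for the mean ± SD of 3 libraries. The share falls to between 0.244 and 0.305% in starvation on both sugars, the count relative to cytosolic proteins rises above 9, and the subunit ratio lies between 1.08 and 1.46 in all libraries.

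In exponential growth the members were somewhat lower on xylose than on glucose. Of the 46 tested members, 14 were called lower on xylose and 0 higher by edgeR, with 10.8% of all loci called lower and 9.94% higher. The median change was -0.29, and 43 members had a value below 0, against a median of -0.03 and 55.6% of loci. In 39 members all xylose libraries lay under all glucose libraries, against 29.2% of loci. With only the exponential libraries in the fit, 38 members were called lower, against 20.5% of loci. Leaving out 1 exponential library gave 5 to 10 members, with 380 to 474 loci called lower in all, against 626 in the main fit. Leaving out 1 starved library, which is not part of this comparison, gave 13 to 23 members, with 568 to 815 loci in all. The deepest differences called were those of PHBOTO_001913 (-0.56 ± 0.09, edgeR adjusted p = 0.000329), PHBOTO_005864 (-0.49 ± 0.11, edgeR adjusted p = 0.00329) and mrpl33 (-0.46 ± 0.09, edgeR adjusted p = 0.000974). In each of these 3 genes the xylose libraries lay wholly lower. All differences were under 1.5-fold, the widest being that of PHBOTO_001913. The 75 cytosolic ribosomal proteins had a median of -0.06 in the same comparison. The other mitochondrial lists, described below, also lay below 0. Their medians were -0.20 for protein import, -0.25 for transcription and DNA upkeep, -0.17 for oxidative phosphorylation, -0.16 for translation and -0.09 for assembly and insertion. For protein import, all 24 tested genes had a value below 0, and 7 were called lower. Differences between the lists were not tested.

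In starvation the order was the other way for most members. Of 46 tested members, 18 were called higher on xylose and 0 lower, with 23.0% of all loci called higher and 19.2% lower, so the members' count is read against a wide background. The median change was 0.25, 39 members had a value above 0, against 49.8% of loci, and in 13 the libraries lay apart, against 23.8% of loci. The 3 highest differences called were PHBOTO_004211 (0.59 ± 0.18, edgeR adjusted p = 0.014), mrpl3 (0.58 ± 0.13, edgeR adjusted p = 0.00197) and mrpl35 (0.57 ± 0.14, edgeR adjusted p = 0.00436). Libraries of mrpl3 and mrpl35 lay apart between the sugars, whereas those of PHBOTO_004211 overlapped. The difference of PHBOTO_004211 was 0.91 without starved glucose C, and its call was lost without starved glucose A or B or starved xylose A (0.50, 0.40 and 0.43) and with only the starved libraries in the fit (0.58). That of mrpl35 was 0.36 without starved xylose A and kept its call. This comparison rested largely on starved xylose A: without it 3 members were called higher (mrpl10, mrpl3 and mrpl35), against 18.3% of loci, 1 was called lower (mrp4), and the median was 0.10. With only the starved libraries in the fit, 5 members were called higher, against 15.9% of loci. In the main fit 68 of 75 cytosolic ribosomal proteins were called higher on xylose in starvation and 0 lower (median 0.68). Of 24 tested genes of mitochondrial protein import, 13 were called higher and 1 lower (median 0.34). Differences between these lists and the members were not tested.

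The fall in starvation was smaller on xylose than on glucose for most members. Tested as the interaction of phase and sugar (the log2 change on xylose minus that on glucose), 29 of 46 members had a positive value past the threshold and 0 a negative one, with 21.7% of all loci positive and 16.5% negative. The median was 0.53 against 0.03 over all loci, and 45 members had a positive value, against 52.4% of loci, the exception being mrpl39 at -0.14. All 29 were also lower in starvation on glucose. Without starved xylose A, 17 of the 29 were still called, against 17.2% of loci, 41 members were positive, against 48.2% of loci, and the median was 0.33.

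The smallest p-values of the interaction belonged to mrpl10, PHBOTO_001913, mrpl3, PHBOTO_004681 and mrpl33, all of which kept their call without that library. The counterpart of L15, mrpl10 (PHBOTO_004669), stood at 142, 142 and 134 CPM in exponential glucose and 48.8, 51.1 and 47.6 CPM in starved glucose, and at 108, 104 and 98.7 CPM in exponential xylose and 72.3, 57.1 and 60.2 CPM in starved xylose. It thus began lower on xylose and ended higher, and the interaction was 0.79 ± 0.13 (edgeR adjusted p = 0.000223). For mrpl3 the interaction was 0.98 ± 0.17 (edgeR adjusted p = 0.00045), the widest of the members. For PHBOTO_001913, PHBOTO_004681 and mrpl33 it was 0.80 ± 0.13, 0.83 ± 0.16 and 0.60 ± 0.12 (edgeR adjusted p = 0.000243, 0.000701 and 0.00127). Among the members with deep falls on both sugars, mrpl20 and mrp4 had interactions of 0.28 ± 0.18 and 0.07 ± 0.18 that missed the threshold (edgeR adjusted p = 0.235 and 0.769). The interaction was positive and called for 67 of 75 cytosolic ribosomal proteins too, with a median of 0.73.

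**Figure D4:**
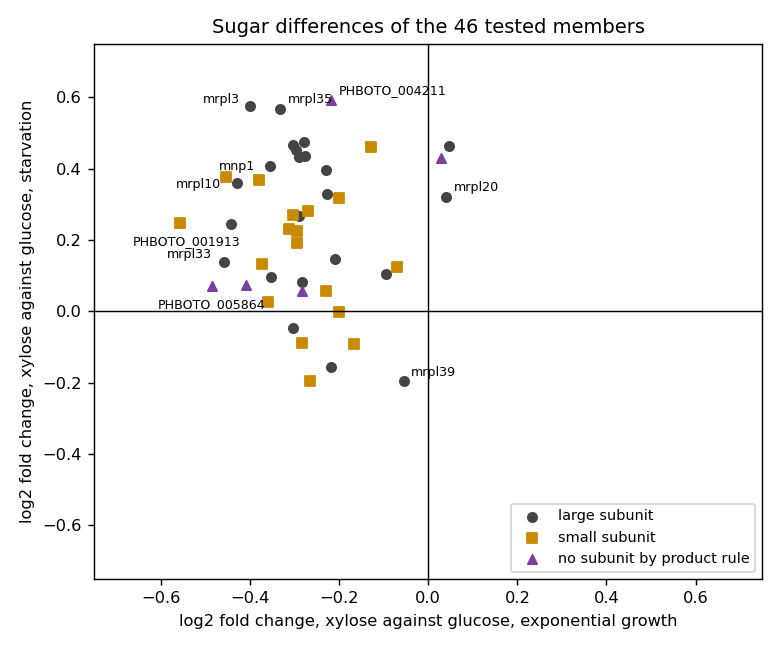
Log2 fold change of xylose against glucose in exponential growth (horizontal) and in starvation (vertical) for each of the 46 tested members, with symbols for the subunit. Most points lie left of 0 and above 0, with 43 members below 0 in exponential growth and 39 above 0 in starvation; the comparisons share no library, and the vertical values include starved xylose A.

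Transcripts of the proteins that work with the mitochondrial ribosome fell in large part as well. Of 23 tested genes of mitochondrial translation (factors and tRNA ligases), 22 were called lower on glucose and 0 higher (median -1.33), and 19 lower and 1 higher on xylose (median -0.90). The shares of all loci called, given above, were 41.1% lower and 40.1% higher on glucose and 40.6% each way on xylose. The release factor mrf1 fell by 2.55 ± 0.31 on glucose and by 2.14 ± 0.29 on xylose on the log2 scale, from 26.3 ± 2.23 to 4.48 ± 1.92 CPM and from 29.3 ± 1.53 to 6.82 ± 3.59 CPM. The recycling factor rrf1, which splits ribosomes after release, fell by 2.50 ± 0.19 and 1.62 ± 0.18. The glycine tRNA ligase grs1, which also serves the cytosol in S. cerevisiae, fell by 1.91 ± 0.08 on glucose and by more on xylose, 2.34 ± 0.08, with an interaction of -0.43 ± 0.11 (edgeR adjusted p = 0.00749). The valine tRNA ligase vas1 fell from 641 ± 25.5 to 191 ± 10.4 CPM on glucose and from 584 ± 20.7 to 178 ± 12.0 CPM on xylose. Whether the product of vas1 serves mitochondria alone was not tested. The exception on xylose was mto1, which modifies mitochondrial tRNA, and rose from 45.3 ± 2.95 to 114 ± 12.9 CPM (1.33 ± 0.12, edgeR adjusted p = 3.57e-08). Elongation factor Tu, tuf1, was named after its values were seen: it fell from 342 ± 10.9 to 136 ± 27.6 CPM on glucose and stood at 282 ± 5.84 and 264 ± 27.1 CPM on xylose (edgeR adjusted p = 0.472). A further 6 genes of this list were too low to test.

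Genes that assemble the mitochondrial ribosome, or insert its products in the membrane, were mixed. Of 10 tested, 6 were lower on glucose and 0 higher (median -0.84), and 7 lower and 2 higher on xylose (median -0.92). With 41.1% of all loci lower on glucose and 40.6% on xylose, counts this small are not set apart from the background. The assembly GTPase mtg1 fell by 2.28 ± 0.31 and 1.52 ± 0.29 on the log2 scale on glucose and xylose, and the insertase oxa1, which takes nascent proteins from the ribosome into the inner membrane, fell by 2.22 ± 0.12 and 1.94 ± 0.11. On xylose mdm38, a ribosome receptor of the inner membrane, rose from 144 ± 7.90 to 363 ± 37.1 CPM (1.33 ± 0.17, edgeR adjusted p = 2.83e-06), while on glucose its change was 0.00 ± 0.17 (edgeR adjusted p = 0.987). The methyltransferase-like assembly factor rsm22, a small-subunit protein by its name that the product rule leaves out, rose on xylose by 0.99 ± 0.14 (edgeR adjusted p = 9.66e-06). The other such locus, ehd3, was called lower on xylose (-0.36 ± 0.09, edgeR adjusted p = 0.00141) and not on glucose (-0.03 ± 0.09, edgeR adjusted p = 0.732).

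Of 8 genes of mitochondrial transcription and DNA upkeep, 6 were lower on glucose and 0 higher (median -0.88), and 5 lower and 0 higher on xylose (median -0.46), counts that are likewise not set apart from the shares of all loci. The mitochondrial RNA polymerase rpo41 fell from 177 ± 16.4 to 48.8 ± 16.3 CPM on glucose and from 137 ± 9.93 to 89.4 ± 13.3 CPM on xylose, and the RNA helicase suv3 fell by 1.81 and 1.33 on the log2 scale. The DNA polymerase mip1 stood at 127 ± 3.67 and 135 ± 2.77 CPM on glucose and at 136 ± 1.55 and 129 ± 17.3 CPM on xylose, and was called on neither.

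The cytosolic ribosomal proteins had a lower median change than the mitochondrial ones, a difference that was not tested. Of 75 tested, 72 were lower and 1 higher on glucose (median -3.29), and 73 lower and 1 higher on xylose (median -2.48). The largest falls were those of rps0b, by 4.50 and 3.76 on the log2 scale, and rpl16a, by 4.47 and 3.63. The 1 that rose was rpl40a, whose product is a fusion with ubiquitin. No member of the mitochondrial ribosome reached the median fall of the cytosolic list on glucose, and mrpl20 alone did on xylose.

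The respiratory chain, which holds the proteins that mitochondrial ribosomes make, had genes called in both directions. The list was found by product name and, without 7 genes that are not subunits of a respiratory complex (set aside after values had been seen), held 36 tested genes, of which 26 were lower and 3 higher on glucose (median -0.79), and 21 lower and 7 higher on xylose (median -0.45). With those genes kept, 28 of 43 were lower and 8 higher on glucose (median -0.48), and 22 lower and 12 higher on xylose (median -0.39). Their medians lie closer to 0 than that of the mitochondrial ribosome, a difference that was not tested. All 11 nuclear ATP synthase genes fell on both sugars (medians -1.19 and -0.79), with atp1, the alpha subunit, going from 2502 ± 95.2 to 870.2 ± 60.8 CPM on glucose and from 2281 ± 106 to 1048 ± 61.2 CPM on xylose. All 3 tested genes of complex II were called higher on both sugars (medians 0.66 and 1.38). Complex I had 6 of 10 genes lower and 0 higher on each sugar, complex III 5 of 6 lower on glucose and 2 lower and 3 higher on xylose, and complex IV 4 of 6 lower on glucose and 2 lower and 1 higher on xylose. Of all loci, 41.1% were called lower and 40.1% higher on glucose, and 40.6% each way on xylose. Against those shares, the small counts of complexes I, II, III and IV are not set apart from the background. Of 24 tested genes of mitochondrial protein import, 20 were lower and 0 higher on glucose (median -0.78), and 12 lower and 7 higher on xylose (median -0.15). Against 41.1% of all loci lower on glucose and 40.6% called each way on xylose, the xylose counts lie near the background. The small intermembrane chaperone tim13 fell by 1.92 and 2.06, while the translocase receptor tim50 rose on xylose by 1.24 ± 0.10 (edgeR adjusted p = 8.41e-09).

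**Figure D5:**
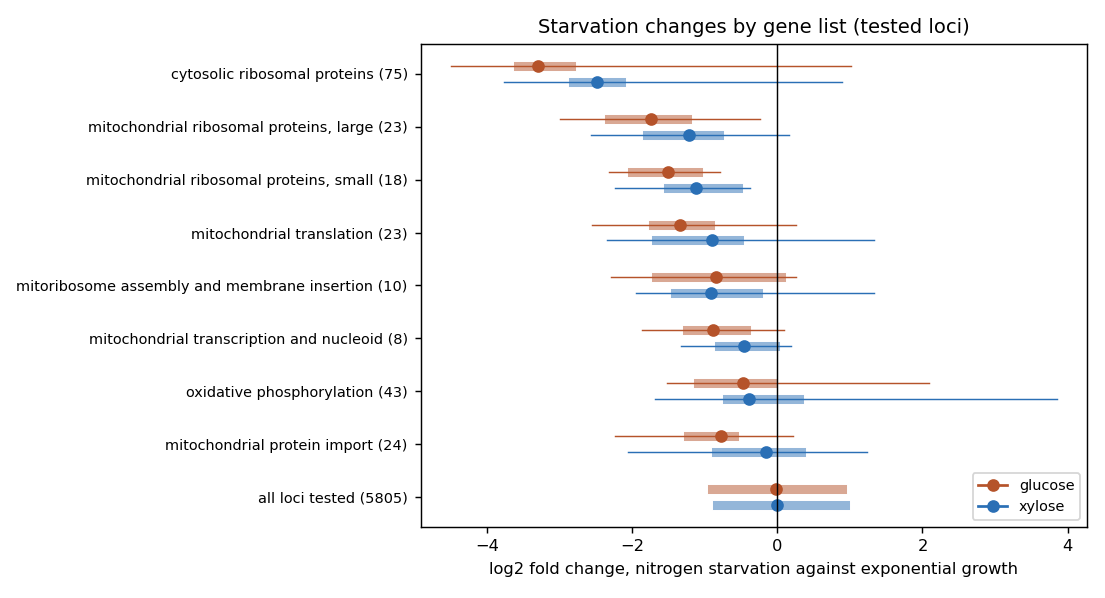
Log2 fold changes in starvation by gene list, on glucose and on xylose, with the number of tested loci in brackets; points are medians, thick bars the interquartile range and thin lines the full range, which is left out for all loci. Medians of the large (-1.74 and -1.21) and small (-1.51 and -1.12) mitochondrial subunits lie between those of the cytosolic ribosomal proteins (-3.29 and -2.48) and those of the respiratory chain list with all 43 genes (-0.48 and -0.39).

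By consecutive locus numbers, 7 members sit beside a locus of another list. Genome positions and strands were not used here. The ribosomal gene mrpl49 and its neighbour atp1 changed by -1.53 and -1.52 on glucose and by -0.97 and -1.12 on xylose. The neighbours yml6 and rps16a also both fell, by 2.83 and 3.35 on glucose. In contrast, mrps5 fell while its neighbour PHBOTO_002707, annotated as a vacuolar ATPase subunit, rose by 2.02 on glucose and 1.2 on xylose, and mrpl23 fell while its neighbour PHBOTO_000431 changed by 0.07 and 0.20.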

How the data were processed

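Per the labels' protocols, cells were quenched in liquid nitrogen, and a stranded kit with poly-A selection gave 12 libraries. Per the submitters' processing notes, bcl2fastq 2.20.0.422, CASAVA, Trim Galore 0.6.1, cutadapt 2.3, HISAT2 2.2.1 and DESeq2 were used. Neither the labels nor the headers used here name the read counter, its strand setting, the genome build or the annotation, so reads of overlapping or antisense genes, or of near-identical copies, may not be separated.

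Per the file headers, the deposited table holds raw counts per locus, normalized counts (a signal proportional to the counts within each library), and the authors' log2 fold changes and p-values for 4 comparisons. In the authors' deposited table, 44 members were lower in starvation on glucose, and 42 were lower and 1 higher on xylose. Between the sugars, 21 members were lower on xylose in exponential growth there and 16 higher in starvation, against 14 and 18 here. Its log2 fold changes differed from those used here by at most 0.0313. Groups follow the sugar and growth condition labels; the growth protocol text names glucose for all samples.

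Raw counts were fitted in edgeR 4.0.16 (R 4.3.3) with TMM scaling and 1 coefficient for each of 4 groups. The filterByExpr function kept 5805 of 6689 loci (minimum count 10, minimum total 15, hence 0.395 CPM in 3 libraries). Tests were quasi-likelihood F tests with 8 residual degrees of freedom, Benjamini-Hochberg adjustment over all 5805 loci and a threshold of 0.05, and were tested on simulated data. Each SE was approximated as the size of the log2 change over the square root of F. A count of 0 was bounded at 3 counts over all libraries, which covers counting error only.

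The members and lists were chosen with earlier results of these data known. Values in every library are given for the 5 largest falls and the 2 smallest changes of each starvation comparison, the 3 highest mean levels, the 3 largest changes of each sugar comparison and the 5 smallest p-values of the interaction. Lists were found by product and gene name, with no set test. Alternatives were DESeq2 1.42.0, RLE and upper-quartile scaling, no filter, a replicate block, the groups compared alone, and each library left out.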

Additional observations from a re-analysis of the deposited data

Results flagged for a closer look

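Of 46 tested members, 29 had a change in starvation that differed between the sugars, by edgeR's test of the interaction of phase and sugar at an adjusted p under 0.05, against 21.7% of all loci with a positive call. Given here are the 13 of them whose values in every library were chosen for the text by the naming rule. Each value is the log2 change on xylose minus that on glucose, and all 13 are positive. In the large subunit the interaction was 0.98 for mrpl3, 0.90 for mrpl35, 0.79 for mrpl10, 0.76 for mnp1, 0.75 for yml6, 0.69 for img1, 0.60 for mrpl33, 0.45 for img2 and 0.37 for rml2. In the small subunit it was 0.83 for PHBOTO_004681 and 0.80 for PHBOTO_001913. Among members left without a subunit by the product rule it was 0.81 for PHBOTO_004211 and 0.56 for PHBOTO_005864. Without starved xylose A, 9 of these 13 kept their call. The members img1, rml2, img2 and PHBOTO_004211 did not.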

How the results depend on the processing

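The counts of members that fell in starvation moved little under any alternative. On glucose 43 to 45 members were called with 1 library left out, and on xylose 42 to 43; over all 19 alternatives 43 members were lower on glucose in every one and 42 on xylose. The sugar comparisons moved more. In exponential growth the 14 calls became 38 with only the groups compared and 5 to 23 with 1 library left out (lowest without exponential glucose A or exponential xylose C, highest without starved glucose A or C). In starvation the 18 calls of a higher level on xylose became 5 with only the groups compared. With 1 library left out they became 3 to 23 (lowest without starved xylose A, where 1 member was called lower, highest without starved xylose C). The 29 interaction calls became 17 to 33 (lowest without starved xylose A, highest without starved xylose C). The cause was not tested.

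DESeq2 called 44 members in starvation on glucose, 43 on xylose (1 of them higher), 21 in exponential growth, 16 in starvation and 29 in the interaction. Calls against the common direction were made in 2 comparisons. In starvation on xylose, PHBOTO_002025 or mrpl33 was called higher in 9 settings. In starvation, mrpl39 (without starved glucose B), sws2 (without starved glucose C) and mrp4 (without starved xylose A) were called lower on xylose. For single members, the change of mrpl31 on xylose, 0.10, ran from -0.0153 to 0.25 with 1 library left out, with a reversed sign without starved xylose A (-0.0041) or B (-0.0153). The difference of PHBOTO_004211 between the sugars in starvation lost its call in 4 settings (edgeR adjusted p from 0.0533 to 0.0975), and ran from 0.40 to 0.91 with 1 library left out. No scaling moved the median of all loci by over 0.1 on the log2 scale.

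Most same-lettered libraries did not deviate together. Of 18 pairs, 2 had a correlation over 0.1 (range -0.12 to 0.17), and 5 correlated best with their own letter. The A libraries of exponential and starved xylose were in both sets, at 0.126, and so were the C libraries of starved glucose and starved xylose, at 0.171. Among the tested members, replicate A was highest for 39 in exponential xylose and for 43 in starved xylose. In exponential and starved glucose it was highest for 20 and 11. Whether the members share an effect of the letter on xylose was not tested. With the replicate block 44 members were called in starvation on glucose, 43 on xylose, 17 and 18 in the sugar comparisons and 27 in the interaction; within each sugar the block gave 44, 42 and 30. The lowest count of a tested member in a library was 283 reads.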
